A study of Mus musculus with 9 samples.

Results

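The genes described here are the core of the Hippo pathway and the CCN genes that its effectors switch on, in the liver of mice in which Scd2 had been deleted from collagen-producing cells. They were taken by symbol: Yap1, Wwtr1, Tead1, Tead2, Tead3, Tead4, Lats1, Lats2, Ctgf and Cyr61, which are 10 of the 16755 genes in the table. Polyadenylated RNA came from tumor-adjacent liver (TAL) of 3 Scd2f/f mice and 3 Scd2f/f;Col1a1-Cre (Scd2f/f;CC) mice given DEN and Western alcohol diet (WAD), and from the liver of 3 untreated Scd2f/f mice, here called control liver. All were labelled as C57BL/6 mice (C57BL/6J in the study's methods) and had both Scd2 alleles floxed, so control mice carried the floxed alleles too. Mice of 2 weeks received DEN, a liver carcinogen, at 10 mg/kg. Feeding of WAD, which supplies lard, cholesterol and ethanol in liquid form, began at 6 weeks and went on for 4 months according to the sample labels. The study's methods give a longer feeding period. The Col1a1 promoter drives Cre in activated hepatic stellate cells (aHSC) and other collagen-producing fibroblasts, so deletion was directed to these cells and not to hepatocytes. Untreated Scd2f/f;Col1a1-Cre mice were not analysed here. The genotype and the treatment of the control mice follow their labels, although 1 of the label fields repeats the DEN and WAD text for them.

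In the Hippo pathway, the kinases LATS1 and LATS2 phosphorylate the coactivators YAP (encoded by Yap1) and TAZ (encoded by Wwtr1), which keeps them out of the nucleus. Unphosphorylated YAP and TAZ enter the nucleus, bind the DNA-binding proteins TEAD1 to TEAD4 and switch on target genes. Ctgf (also Ccn2) and Cyr61 (also Ccn1) are classical targets and encode matricellular proteins of the CCN family. In liver the pathway is known for control of organ size, regeneration and fibrosis. Because YAP and TAZ are regulated mainly through phosphorylation and location, mRNA levels do not show how much of them was in the nucleus.

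The promoters of Yap1, Wwtr1 and Cyr61 are shown because each holds the core of the TEAD binding motif and because they belong to the coactivators and to the target that differed most from control liver. Each line holds 250 bases that end 1 base before a RefSeq transcription start on GRCm38.p6, written 5′ to 3′ on the gene's strand, and capitals mark the motif GGAATG or its reverse complement CATTCC. The windows lie at chr9:8004597-8004846 for Yap1, chr3:57575911-57576160 for Wwtr1 and chr3:145649986-145650235 for Cyr61, all on the minus strand.
Yap1: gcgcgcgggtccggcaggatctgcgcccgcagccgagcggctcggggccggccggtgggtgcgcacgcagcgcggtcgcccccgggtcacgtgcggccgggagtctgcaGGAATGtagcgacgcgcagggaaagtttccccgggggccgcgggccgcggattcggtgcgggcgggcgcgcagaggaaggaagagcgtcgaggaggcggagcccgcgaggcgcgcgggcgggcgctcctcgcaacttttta
Wwtr1: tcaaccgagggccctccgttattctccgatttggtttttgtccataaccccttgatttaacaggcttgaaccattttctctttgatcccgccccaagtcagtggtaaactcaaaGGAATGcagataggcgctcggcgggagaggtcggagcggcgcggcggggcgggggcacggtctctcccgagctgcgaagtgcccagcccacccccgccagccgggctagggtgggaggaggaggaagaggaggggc
Cyr61: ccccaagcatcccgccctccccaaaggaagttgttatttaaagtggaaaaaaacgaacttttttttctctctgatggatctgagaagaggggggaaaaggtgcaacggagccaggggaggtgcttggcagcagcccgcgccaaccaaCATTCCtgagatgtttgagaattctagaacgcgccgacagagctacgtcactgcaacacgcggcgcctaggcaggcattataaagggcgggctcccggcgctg
The motif began 141 bases before the start of Yap1, 136 bases before that of Wwtr1 and 103 bases before that of Cyr61. Windows of 300 bases, with 50 bases after the start, were found by symbol for 7 of the 10 genes, with 11 windows in all. The motif was present on either strand in 7 of the 11 windows and in at least 1 window of 5 of the 7 genes, against 14.7% of all 32851 windows and 16.6% of all 27025 genes of the RefSeq table. The 2 windows of Wwtr1 overlap and hold the same match, 136 and 170 bases before their starts, so 1 site counts in 2 windows. One of the Tead3 windows held 3 matches, which 0.131% of all windows reached or passed. Lats2 held a match in 1 of its windows, 5 bases into the transcript, and no match was found in the windows of Tead2 and Lats1. A match describes letters in these windows, and binding was not measured.

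The table gives the authors' least-squares mean of normalized counts for each group, rounded to 3 significant digits, and no value of a single mouse was analysed here. The spread between mice and the depth of each sample are therefore unknown, no test across mice was run, and every fold difference below is a quotient of authors' means without an error. In place of the spread, each log2 ratio was placed among genes of like level, those whose mean over the groups lay within 2-fold of that gene's own mean. A gene was counted as past the limit when the quotient reached 2-fold and its mean over the 3 groups was at least 1, which left 11784 genes. Rounding of the means could move the log2 ratio of a gene in the group by at most 0.013. The targeted gene Scd2 had an authors' mean of 6.47 in Scd2f/f TAL, 1.87 in Scd2f/f;CC TAL and 2.46 in control liver, and Col1a1, whose promoter drives the Cre, had 19.6, 4.51 and 4.69. The authors' means of Alb, the main product of hepatocytes, were 20900, 22700 and 21300 in the same order, so the defining transcript of the labelled tissue was present in every group.

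Of the 10 genes, 8 had a mean of at least 1, and Tead2 and Tead4 lay below it. Under the per-length scale, in which the authors' mean is divided by the kilobases of exon of each gene in GENCODE M21, Cyr61 had the highest level in Scd2f/f TAL, 6.29 per kb, followed by Wwtr1 at 5.23, Lats1 at 4.82 and Yap1 at 3.48. Lats2 at 1.59 and Ctgf at 1.51 per kb came next, then Tead1 at 0.681 and Tead3 at 0.493 per kb. Tead4 at 0.0812 and Tead2 at 0.0485 per kb were the lowest. In control liver the order on the same scale opened with Lats1 at 5.13, Yap1 at 4.45, Wwtr1 at 3.49 and Cyr61 at 2.53 per kb. In Scd2f/f;CC TAL it opened with Cyr61 at 5.65 and Lats1 at 5.39 per kb. There Tead3, at 0.512 per kb, stood above Tead1, at 0.452. Without values of single mice, it cannot be said which neighbours in these orders differ beyond their spread. Exon lengths cover all exons of a gene in GENCODE M21, while the authors counted on Gencode M3, so these orders depend on the annotation.

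**Figure D1:**
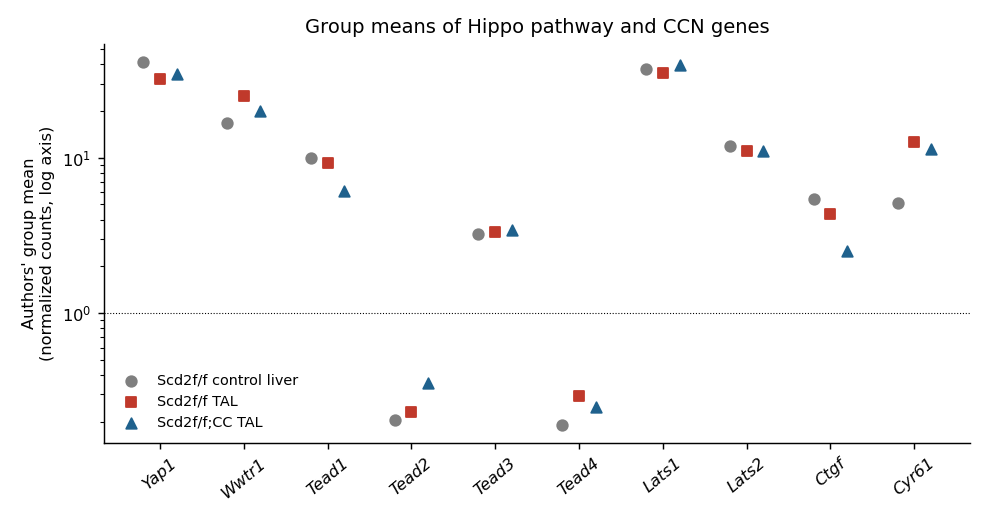
Authors' mean of normalized counts (log axis) for each of the 10 genes in control liver (circles), Scd2f/f TAL (squares) and Scd2f/f;CC TAL (triangles), 3 mice each, with a dotted line at a mean of 1. Cyr61 lies at 5.11 in control liver and at 12.7 and 11.4 in the TAL groups, Ctgf is lowest in Scd2f/f;CC TAL at 2.51, and Tead2 and Tead4 lie below the line in all 3 groups.

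The coactivators differed in opposite directions between Scd2f/f TAL and control liver. Yap1 (chromosome 9, 7931999 to 8004597, minus strand) had an authors' mean of 32.2 in Scd2f/f TAL, 34.4 in Scd2f/f;CC TAL and 41.2 in control liver. It was highest in control liver, 1.28-fold above Scd2f/f TAL. The log2 ratio of Scd2f/f TAL over control, -0.36, was above that of 15% of genes of like level and became -0.04 when each group was rescaled to its sum. Between the TAL groups Yap1 had a log2 ratio of 0.10 in favor of Scd2f/f;CC, or -0.07 after rescaling, so the direction of that small difference depends on the scaling. In exons, Yap1 overlaps the antisense gene Gm20416 over 116 bp, 1.25% of its exon length. The library kit does not mark strand, and the authors' means of Gm20416 were 0.0703, 0.137 and 0.103.

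Wwtr1 (chromosome 3, 57455649 to 57575911, minus strand) had an authors' mean of 25.0 in Scd2f/f TAL, 20.1 in Scd2f/f;CC TAL and 16.7 in control liver. It was 1.5-fold higher in Scd2f/f TAL than in control liver, a log2 ratio of 0.58 (0.90 after rescaling). Before rescaling this ratio exceeded that of 92.8% of genes of like level. In Scd2f/f;CC TAL it lay between the other groups, 1.24-fold below Scd2f/f TAL. That log2 ratio, -0.31, exceeded that of 6.02% of genes of like level and so lay just inside their middle 90%, which ran from -0.35 to 0.32. These directions of Wwtr1 held under every scaling tried.

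The balance of the coactivators needs no scaling between groups. The quotient of the normalized counts of Wwtr1 over Yap1, which can be compared between groups but is not corrected for length, was 0.776 in Scd2f/f TAL, 0.584 in Scd2f/f;CC TAL and 0.405 in control liver. It was 1.92-fold higher in Scd2f/f TAL than in control liver, and in Scd2f/f;CC TAL it was 1.33-fold below that in Scd2f/f TAL. Per kb of exon, Wwtr1 stood above Yap1 in both TAL groups, at 5.23 against 3.48 and at 4.21 against 3.72, and below it in control liver, at 3.49 against 4.45.

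Of the TEAD genes, which encode the DNA-binding partners, Tead1 had the highest level per kb in Scd2f/f TAL and control liver and Tead3 in Scd2f/f;CC TAL. In normalized counts Tead1 stood above Tead3 in every group, so the order in Scd2f/f;CC TAL rests on the exon lengths used. Tead1 (chromosome 7, 112679318 to 112906808, plus strand) had an authors' mean of 9.24 in Scd2f/f TAL, 6.13 in Scd2f/f;CC TAL and 9.96 in control liver. Scd2f/f;CC TAL stood apart as the lowest, 1.51-fold below Scd2f/f TAL and 1.62-fold below control liver. The log2 ratio between the TAL groups, -0.59, exceeded that of 3.20% of genes of like level, and the one against control liver, -0.70, exceeded 4.63%. Both lay below the middle 90% of like-level genes and short of 2-fold, and both directions held under every scaling tried. Between Scd2f/f TAL and control liver the log2 ratio of Tead1 was -0.11, or 0.21 after rescaling to the sums.

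Tead3 (chromosome 17, 28331671 to 28350806, minus strand) had nearly equal authors' means of 3.31, 3.44 and 3.25 in Scd2f/f TAL, Scd2f/f;CC TAL and control liver. Its log2 ratio was 0.06 between the TAL groups, which turned to -0.11 after rescaling. Against control liver its log2 ratio was 0.03 in Scd2f/f TAL, 0.34 after rescaling and 0.00 (just below zero) after centring. The quotient of the normalized counts of Tead1 over those of Tead3 was 2.79 in Scd2f/f TAL, 1.78 in Scd2f/f;CC TAL and 3.06 in control liver. It was 1.57-fold lower in Scd2f/f;CC TAL than in Scd2f/f TAL.

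The other two TEAD genes were close to the bottom of the table. Tead2 (chromosome 7, 45215753 to 45233645, plus strand) had an authors' mean of 0.232 in Scd2f/f TAL, 0.355 in Scd2f/f;CC TAL and 0.206 in control liver, and 10.5% of all genes had a lower mean. Tead4 (chromosome 6, 128224288 to 128300824, minus strand) had 0.292, 0.25 and 0.191, and 9.41% of all genes had a lower mean. The log2 ratio of Tead2 between the TAL groups, 0.61, and that of Tead4 between Scd2f/f TAL and control liver, 0.61, lay well inside the middle 90% of genes of that level, which ran from -1.38 to 1.02 and from -1.47 to 1.86. Tead2 shares 13 bp of exon with Cd37 on the other strand. Cd37, a leukocyte gene, had authors' means of 0.988 in Scd2f/f TAL, 0.697 in Scd2f/f;CC TAL and 0.238 in control liver, and its part in the counts of Tead2 was not tested.

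The kinases, which inhibit YAP and TAZ, differed little between groups. Lats1 (chromosome 10, 7681214 to 7716461, plus strand) had an authors' mean of 35.2 in Scd2f/f TAL, 39.3 in Scd2f/f;CC TAL and 37.4 in control liver. Its log2 ratio was 0.16 between the TAL groups and -0.09 between Scd2f/f TAL and control liver, and rescaling to the sums turned these to -0.01 and 0.23. Lats2 (chromosome 14, 57642077 to 57758389, minus strand) had 11.1, 11 and 11.8. Its log2 ratio was -0.01 between the TAL groups, and its -0.09 in Scd2f/f TAL and its -0.10 in Scd2f/f;CC TAL against control liver became 0.23 and 0.05 after rescaling. The quotient of the normalized counts of Lats1 over those of Lats2 was 3.17 in both groups of Scd2f/f mice and 3.57 in Scd2f/f;CC TAL. For Lats2, itself a known target of YAP and TAZ, over Yap1 the quotient was 0.345 in Scd2f/f TAL, 0.32 in Scd2f/f;CC TAL and 0.286 in control liver. Of its exon length, 42.4% is shared with Gm49361, a gene on the same strand in GENCODE M21 that was not matched in the table, so the counting of Lats2 reads depends on the annotation.

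Against control liver, the CCN targets gave the log2 ratios farthest from zero among the 8 genes past the minimum mean, Cyr61 in both TAL groups and Ctgf in Scd2f/f;CC TAL, in opposite directions. Cyr61 (chromosome 3, 145646976 to 145649982, minus strand) had an authors' mean of 12.7 in Scd2f/f TAL, 11.4 in Scd2f/f;CC TAL and 5.11 in control liver. It was higher in both TAL groups than in control liver, by 2.49-fold in Scd2f/f TAL and by 2.23-fold in Scd2f/f;CC TAL. These log2 ratios of 1.31 and 1.16 exceeded those of 97.3% and 97.8% of genes of like level. Between the TAL groups the log2 ratio of Cyr61 was -0.16, which exceeded that of 20.0% of genes of like level. Rescaling to the sums gave 1.63, 1.31 and -0.32, all in the same directions.

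Ctgf (chromosome 10, 24595442 to 24598684, plus strand) had an authors' mean of 4.33 in Scd2f/f TAL, 2.51 in Scd2f/f;CC TAL and 5.4 in control liver. Scd2f/f;CC TAL was lowest, 1.73-fold below Scd2f/f TAL and 2.15-fold below control liver. The log2 ratio between the TAL groups, -0.79, exceeded that of 3.19% of genes of like level, and the one against control liver, -1.11, exceeded 1.96%. After rescaling to the sums they were -0.95 and -0.96, so the comparison with control liver no longer reached 2-fold. Scd2f/f TAL itself was not above control liver in Ctgf, with a log2 ratio of -0.32, or -0.0007 after rescaling. Ctgf shares 665 bp, 23.2% of its exon length, with the antisense gene Gm15270, which was not matched in the table, and without strand their reads cannot be told apart.

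**Figure D2:**
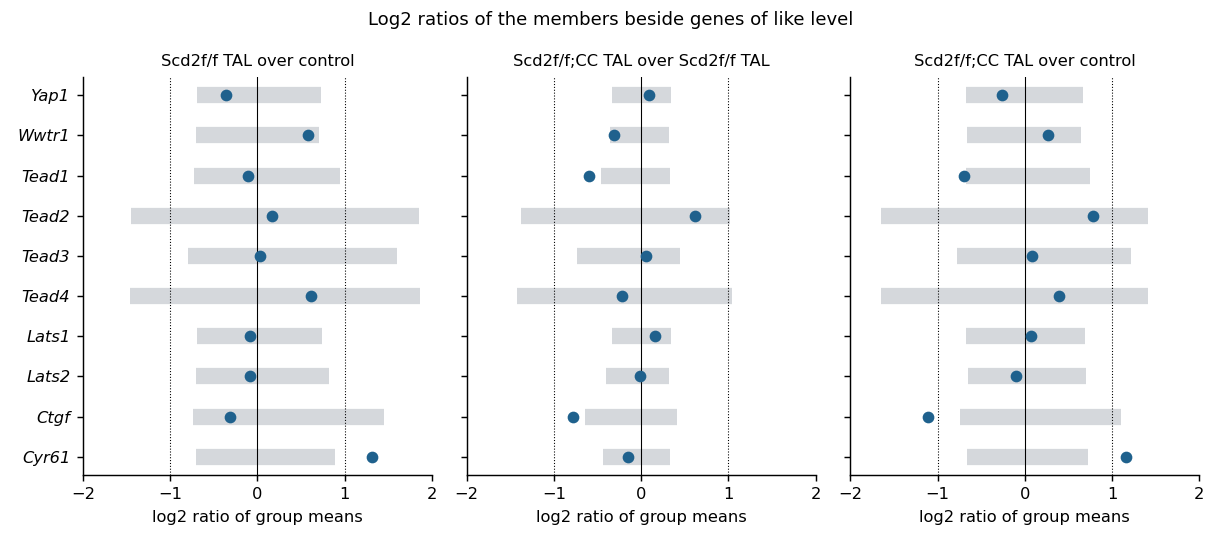
Log2 ratio of the authors' group means (points) for each gene in 3 comparisons, over bars that span the 5th to the 95th percentile of genes of like level, with dotted lines at 2-fold. Cyr61 lies above its bar in both comparisons with control liver, Tead1 and Ctgf lie below theirs in both comparisons of Scd2f/f;CC TAL, and the other genes lie inside.

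The quotient of the normalized counts of Cyr61 over those of Ctgf was 2.93 in Scd2f/f TAL, 4.54 in Scd2f/f;CC TAL and 0.946 in control liver. It was 3.10-fold higher in Scd2f/f TAL than in control liver and 1.55-fold higher in Scd2f/f;CC TAL than in Scd2f/f TAL. Of the other CCN genes, 1 was matched, Wisp1, with authors' means of 0.935 in Scd2f/f TAL, 0.991 in Scd2f/f;CC TAL and 1.19 in control liver.

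**Figure D3:**
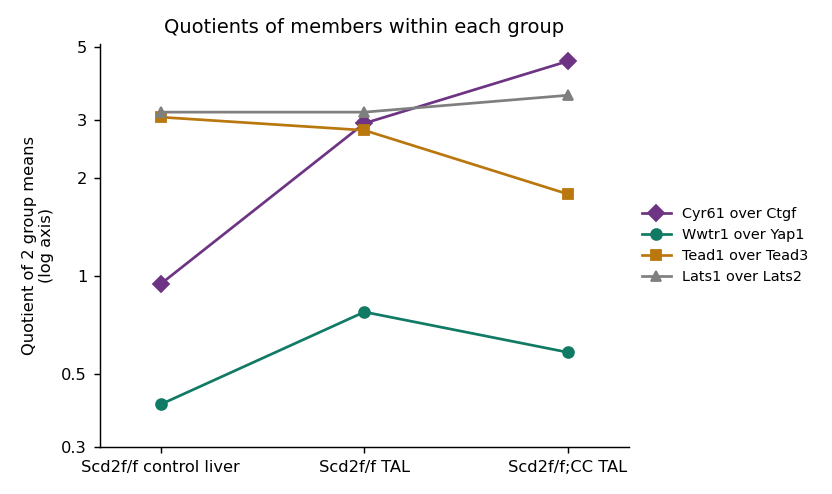
Quotient of 2 authors' means within each group (log axis) for 4 pairs of genes, with lines joining the groups for reading only. Cyr61 over Ctgf goes from 0.946 in control liver to 4.54 in Scd2f/f;CC TAL, Wwtr1 over Yap1 is highest in Scd2f/f TAL at 0.776, Tead1 over Tead3 is lowest in Scd2f/f;CC TAL at 1.78, and Lats1 over Lats2 stays between 3.17 and 3.57.

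Counted against all genes, 0 of the 8 genes at or above a mean of 1 passed 2-fold between the TAL groups, where 76 of 11784 genes (0.645%) were higher in Scd2f/f;CC and 181 (1.54%) were lower. Between Scd2f/f TAL and control liver 1 of the 8, Cyr61, was higher and 0 were lower, against 754 genes (6.4%) higher and 341 (2.89%) lower. Between Scd2f/f;CC TAL and control liver 1 was higher, Cyr61, and 1 was lower, Ctgf, against 531 genes (4.51%) higher and 301 (2.55%) lower. These comparisons share group means, so their values are not independent of each other. The median log2 ratio of the 8 genes was -0.08, -0.09 and -0.01 in the 3 comparisons, and that of all genes was 0.01, 0.03 and 0.04. Rescaling each group to its sum moved the median of all genes to -0.16, 0.35 and 0.19, and that of the 8 genes to -0.25, 0.23 and 0.13. The split of all genes past 2-fold then became 45 higher and 274 lower, 1235 higher and 206 lower, and 692 higher and 218 lower.

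The other regulators of the Hippo pathway were also counted beside all genes. Of 36 listed kinases, scaffolds and inhibitors, 34 were matched and 31 had a mean of at least 1. In the authors' scaling Map4k4, a kinase that can activate LATS, was the only 1 of the 31 past 2-fold in any comparison. Of all genes, 0.645% were higher and 1.54% lower between the TAL groups, and 6.4% and 2.89% in Scd2f/f TAL over control liver. In Scd2f/f;CC TAL over control liver the shares were 4.51% and 2.55%. A count of 1 in 31 is too small to set the regulators apart from these shares. After rescaling 3 regulators were higher by 2-fold in Scd2f/f TAL over control liver, where 10.5% of all genes then were. Map4k4 had an authors' mean of 13.5 in Scd2f/f TAL, 6.52 in Scd2f/f;CC TAL and 4.58 in control liver. It was 2.95-fold higher in Scd2f/f TAL than in control liver and 2.07-fold lower in Scd2f/f;CC TAL than in Scd2f/f TAL. The median log2 ratio of the 31 was -0.04 between the TAL groups, 0.16 between Scd2f/f TAL and control liver and 0.07 between Scd2f/f;CC TAL and control liver. Of the other regulators, 4 were named after their values were seen, for their place in the pathway, and they do not stand for the list. Stk3, a kinase upstream of LATS, had authors' means of 6.98, 6.53 and 6.02 in Scd2f/f TAL, Scd2f/f;CC TAL and control liver, and its paralog Stk4 had 12.9, 12.3 and 11.5. Sav1, their scaffold, had 7.42, 6.86 and 7.28, and Nf2, which recruits LATS to the membrane, had 10.2, 11.3 and 11.8.

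The wider list of YAP/TAZ targets was higher in Scd2f/f TAL than in both other groups at its median. Of 26 listed targets besides Lats2, Ctgf and Cyr61, 24 were matched and 18 had a mean of at least 1. Between Scd2f/f TAL and control liver 5 of the 18 were higher by 2-fold and 0 were lower, with a median log2 ratio of 0.48 and with 15 above zero. Of all genes in that comparison, 6.4% were higher by 2-fold and 2.89% lower, and 52.7% lay above zero. Myof, which encodes a membrane repair protein, had authors' means of 9.69 in Scd2f/f TAL, 5.31 in Scd2f/f;CC TAL and 3.08 in control liver. Axl, a receptor tyrosine kinase, had 26.9, 20.6 and 9.07, Ccdc80, a matrix protein gene, had 15.6, 6.75 and 6.30, and Igfbp3, which encodes an IGF-binding protein, had 12.7, 8.69 and 5.59. Gadd45a, a stress response gene, had 3.30, 1.91 and 1.42. In each of these 5 genes Scd2f/f;CC TAL lay between the other groups.

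Between the TAL groups 2 of the 18 targets were lower in Scd2f/f;CC by 2-fold and 0 were higher, with a median log2 ratio of -0.38 and with 13 below zero. Of all genes in that comparison, 1.54% were lower by 2-fold and 0.645% higher, and 50.6% lay above zero. The 2 lower targets were Thbs1, which encodes a matrix glycoprotein and had authors' means of 7.19 in Scd2f/f TAL, 2.29 in Scd2f/f;CC TAL and 3.63 in control liver, and Ccdc80. The log2 ratios were -1.65 for Thbs1 and -1.21 for Ccdc80. Between Scd2f/f;CC TAL and control liver Axl alone passed 2-fold among the 18, with a log2 ratio of 1.18, and the median was 0.14. There 4.51% of all genes were higher by 2-fold and 2.55% lower. After rescaling to the sums the medians of the targets were -0.54 between the TAL groups, 0.80 in Scd2f/f TAL over control liver and 0.28 in Scd2f/f;CC TAL over control liver, and those of the regulators were -0.21, 0.48 and 0.22. None of these medians changed sign under rescaling or centring. With a minimum mean of 10, the median of the regulators between the TAL groups turned from -0.04 to 0.06.

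**Figure D4:**
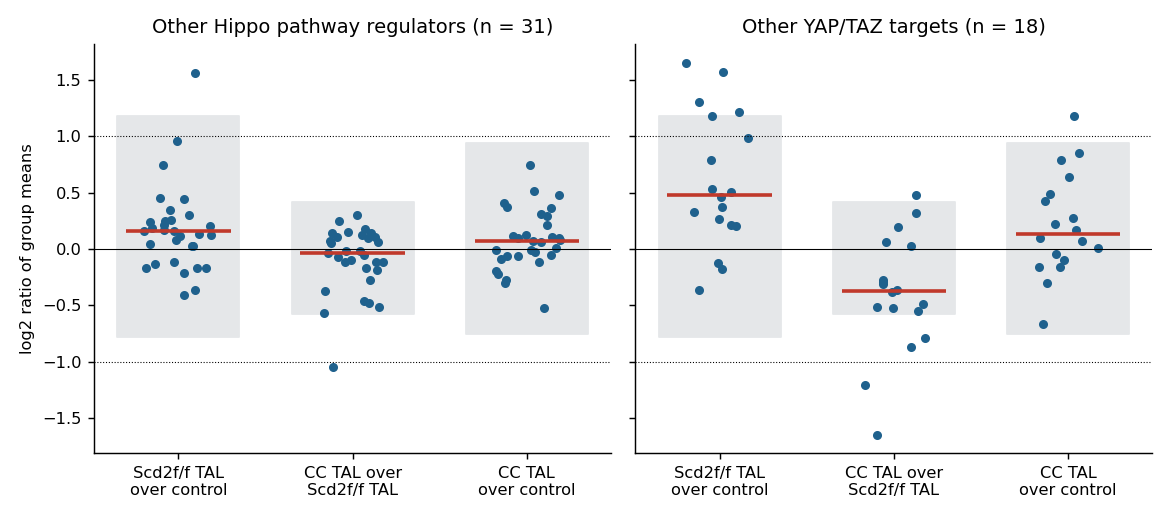
Log2 ratios of the authors' means for 31 other Hippo regulators (left) and 18 other YAP/TAZ targets (right) with a mean of at least 1, in 3 comparisons. Points are genes, red lines are medians, grey boxes span the 5th to the 95th percentile of all 11784 genes and dotted lines mark 2-fold. The median of the targets is 0.48 in Scd2f/f TAL over control and -0.38 in Scd2f/f;CC TAL over Scd2f/f TAL, beside 0.16 and -0.04 for the regulators.

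Markers of several cell types moved with some of these genes. In bulk tissue, fewer cells of a type and less RNA per cell cannot be told apart. The summed level of 12 markers of aHSC and fibroblasts, all matched, was 258.4 in Scd2f/f TAL, 126.2 in Scd2f/f;CC TAL and 137.0 in control liver. Of the 9 whose mean reached 1, 5 were at least 2-fold lower in Scd2f/f;CC TAL than in Scd2f/f TAL, against 1.54% of all genes. Dcn, a matrix proteoglycan gene, made up the largest share of that sum, with 118, 67.2 and 70.3. In the authors' scaling, the contractile and filament genes of the list had another order, with control liver highest, as for Ctgf and Tead1. Tagln had 3.79, 1.75 and 7.85, Des had 3.29, 1.98 and 4.25, and Acta2, with a mean below 1, had 1.2, 0.388 and 1.27. Of the 9 markers whose mean reached 1, Tagln and Des lay below control liver in Scd2f/f TAL and 7 lay above. Col1a2 had 21.7, 6.93 and 6.65, Col3a1 had 58.6, 21.6 and 19.3, and Pdgfrb had 9.91, 4.75 and 6.08. After rescaling to the sums, the log2 ratio of Scd2f/f TAL over control was 0.21 for Tead1 and -0.0007 for Ctgf. Markers were not rescaled. The summed level of 8 cholangiocyte markers was 82.3, 46.5 and 89.3, in the authors' scaling an order also shared with Ctgf and Tead1. Most of the difference in that sum came from Spp1, with 45.1, 14.8 and 52.3. Onecut1 had 27.1, 26.4 and 29.5, and Sox9 had 5.03, 3.52 and 3. Of the 4 cholangiocyte markers whose mean reached 1, 2 were at least 2-fold lower in Scd2f/f;CC TAL than in Scd2f/f TAL, against 1.54% of all genes. These were Epcam and Spp1. Krt7, Krt19 and Cftr, with a mean below 1, also lay past 2-fold there, with log2 ratios of -2.29, -1.88 and -2.61. Prom1, also below that mean, had -0.61. Of 8 macrophage markers, 8 were at least 2-fold higher in Scd2f/f TAL than in control liver, against 6.4% of all genes. In Scd2f/f;CC TAL 7 were at least 2-fold higher than in control liver, against 4.51%. The sums were 288.4, 225.5 and 78.5, and Cyr61 and Axl were higher in the same groups. Between the TAL groups 2 of the 8 were at least 2-fold lower in Scd2f/f;CC, against 1.54% of all genes. Of these, Itgax had 3.66, 1.12 and 0.235, and Cd14 had 3.26, 1.41 and 0.862. Endothelial markers summed to 177.1, 176.7 and 133.2, so their sum too was higher in both TAL groups than in control liver, as for Cyr61 and Axl. Lymphocyte markers summed to 32.1, 22.3 and 7.44, with 7 of 8 at a mean below 1. Ptprc, a gene of leukocytes in general, made up the largest share of that sum, with 27.2, 19 and 5.82. Hepatocyte markers summed to 33520, 37900 and 36320. None of the listed markers was at zero in any group. The part of these cell types in the levels of the Hippo and CCN genes was not tested.

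**Figure D5:**
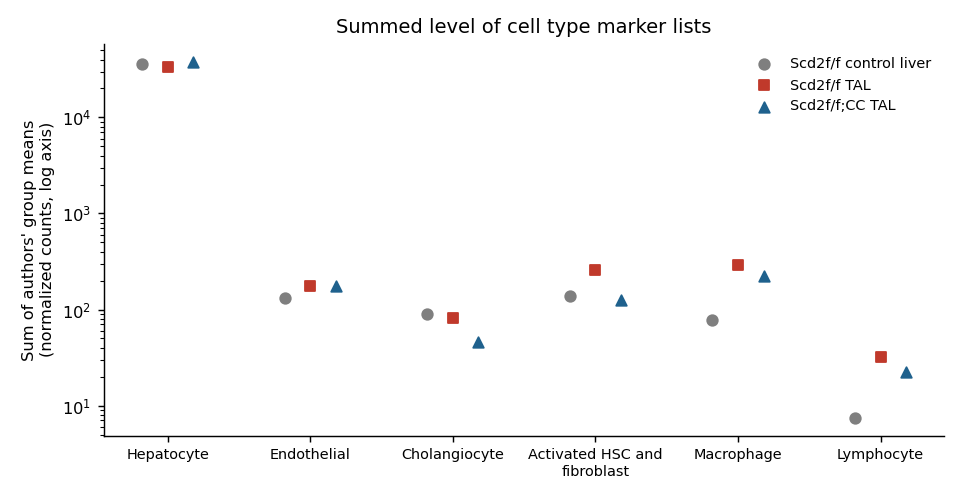
Sum of the authors' means of normalized counts (log axis) over the markers of 6 cell types in control liver (circles), Scd2f/f TAL (squares) and Scd2f/f;CC TAL (triangles). The macrophage sum is 78.5 in control liver against 288.4 and 225.5 in the TAL groups, while the sum for aHSC and fibroblasts is highest in Scd2f/f TAL at 258.4 and the cholangiocyte sum is lowest in Scd2f/f;CC TAL at 46.5.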

How the data were processed

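Polyadenylated RNA was prepared by the authors with the PicoPure and TruSeq RNA v2 kits and sequenced on a NextSeq instrument. The labels name STAR 2.6.1, Partek 6 and mm10, and the paper names quantification on Gencode M3 by the Partek E/M method, upper quartile normalization and Gene Specific Analysis. The deposited table has 18 columns. Its signal columns hold the authors' least-squares mean of normalized counts per group, and the copies of the Scd2f/f TAL mean in its 2 comparisons did not differ. Its other 8 measured columns hold the authors' p-values, false discovery rates, ratios and fold changes, and were not used.

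From the means, log2 quotients were computed without a pseudocount for the 9 samples' 3 groups and placed among genes of like level. Depth is unknown, and the 75th percentile of the means was 15.5, 15.4 and 15.5 in Scd2f/f TAL, Scd2f/f;CC TAL and control liver. Members, gene lists and markers were chosen with earlier results of these data known. Named are all members, Scd2, Col1a1 and, of each list and comparison, at most 8 genes past 2-fold with a mean of at least 1, those with the largest log2 ratio. Some markers that this rule allows are not named. Other named genes were chosen after their values were seen. Listed aliases were matched, such as Patj for Inadl. Gene coordinates are those deposited by the authors, exon lengths came from GENCODE M21 on GRCm38, and promoters came from RefSeq on GRCm38.p6. Promoters of Ctgf, Tead1 and Tead4 were not analysed here. Other limits on fold and mean, pseudocounts, centring on the median gene and rescaling to the sum were tried. The ratio and call steps were tested on simulated group means with planted changes, which checks the arithmetic and says nothing of the spread between mice. Python 3.11.15, NumPy 2.4.6, pandas 2.3.3 and Matplotlib 3.10.9 were used.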

Additional observations from a re-analysis of the deposited data

How the results depend on the processing

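No paired analysis was possible because the table holds group means and no value of a single mouse, and for the same reason no mouse could be left out in turn. Counts past the limit depended on where it was set, as their small size allows. A limit of 1.5-fold gave 2 Hippo core and CCN genes between the TAL groups, Tead1 and Ctgf, 4 further targets there and 5 against control in Scd2f/f;CC TAL, and 3 and 1 further regulators in Scd2f/f and Scd2f/f;CC TAL against control. At that limit 2.35% of all genes were higher and 4.87% lower between the TAL groups, 12.8% and 8.59% in Scd2f/f TAL against control, and 10.9% and 7.7% in Scd2f/f;CC TAL against control. A limit of 3-fold left 0 core and CCN genes and 0 regulators in any comparison, and 1, 1 and 0 targets, where 0.144% to 2.89% of all genes were higher and 0.382% to 1.06% lower. A minimum mean of 10 leaves out Cyr61, Ctgf and every TEAD gene, so Yap1, Wwtr1, Lats1 and Lats2 alone could be counted. It puts 0.501% to 2.6% of all genes higher and 0.609% to 2.63% lower. At that minimum 0 core and CCN genes and 0 regulators were left, and 0 targets between the TAL groups and 1 in Scd2f/f TAL against control. Without a minimum, when 1.82%, 9.37% and 6.41% of all genes were higher and 4.07%, 4.69% and 4.64% lower, the targets past 2-fold numbered 6, 9 and 2, and the regulators 2 and 1 in Scd2f/f and Scd2f/f;CC TAL against control. With a pseudocount of 1, 0 regulators passed between the TAL groups, beside 0.314% of all genes up and 0.704% down. Against control, that pseudocount left 1 core or CCN gene in Scd2f/f;CC TAL, Cyr61, beside all-gene shares of 2.21% up and 1.66% down. Rescaling to the sums also left Cyr61 as the only core or CCN gene there, beside 5.87% up and 1.85% down. Rescaling gave 3 regulators in Scd2f/f TAL against control, beside 10.5% of all genes higher. The log2 ratio of Tead2 in Scd2f/f;CC TAL over control was 0.79, or 0.17 with a pseudocount of 1. Across the alternatives Wwtr1 in Scd2f/f TAL over control ran from 0.55 to 0.90, Cyr61 from 1.16 to 1.63, and Ctgf between the TAL groups from -0.95 to -0.60. Unknown depth and spread limit every value, most of all those of Tead2 and Tead4.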

Other observations

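Some genes of the lists lay below a mean of 1 and were left out of the counts, and those named here were chosen after their values were seen. Of the YAP/TAZ targets, Ankrd1, a classical target that encodes a nuclear cofactor of muscle genes, had authors' means of 0.455 in Scd2f/f TAL, 0.132 in Scd2f/f;CC TAL and 0.176 in control liver. The EGF receptor ligands Areg and Ereg had 0.213, 0.0945 and 0.0685, and 0.59, 0.275 and 0.265, in the same order. Tgfb2, a TGF-beta ligand, had 0.804, 0.269 and 0.57, Birc5, a mitosis gene, had 0.624, 0.449 and 0.262, and Edn1, which encodes endothelin, had 0.25, 0.162 and 0.165. In these 6 genes the authors' mean was highest in Scd2f/f TAL. At such levels the middle 90% of genes of like level to Tead4 spanned log2 ratios from -1.42 to 1.04 between the TAL groups.

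A list of 4 YAP/TAZ targets was chosen by the study with these samples in view and is no independent evidence of a direction. All 4 were matched and had a mean over the groups below 1. Mybl1, a MYB family gene, had authors' means of 1.64 in Scd2f/f TAL, 0.77 in Scd2f/f;CC TAL and 0.301 in control liver. Ccna2, a cyclin gene, had 1.62, 0.832 and 0.359, and Tubb2b, a tubulin gene, had 0.333, 0.0625 and 0.0656. Mycn went the other way, with 0.352 and 0.377 in the TAL groups and 0.954 in control liver. Of the Hippo regulators, Map4k1, a kinase of blood cells, had 0.504, 0.46 and 0.117. Lymphocyte markers summed to 32.1, 22.3 and 7.44, of which Ptprc, a gene of leukocytes in general, made up 27.2, 19 and 5.82. The part of lymphocytes or other leukocytes in the level of Map4k1 was not tested.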
